A study of Ovis aries with 6 samples.

Results

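KITLG, the gene for KIT ligand (also called stem cell factor), and KIT, the gene for its receptor tyrosine kinase, were read as a ligand and receptor pair in single cells of the Hu sheep ovary. They were picked by symbol and not by a measured value, but with earlier results of these data known, and made up 2 of the 30574 features counted. The 6 adult Hu ewes were sampled in oestrus, 3 with litters of at least 3 lambs (HLS) and 3 with litters under 2 lambs (LLS). The tissue was 1 whole ovary per ewe, taken untreated, broken up into cells and sequenced as 1 droplet library with 10x Genomics 3′ chemistry, so each ewe is 1 replicate and no cell type was sorted. Litter size was the one property that separated the groups in the labels, and no genotype was given.

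KIT ligand is made in a membrane-bound and a soluble form, and proteases can shed the first from the cell surface. When it binds, KIT receptors pair up, phosphorylate each other and switch on the PI3K, RAS and MAPK, and JAK and STAT arms of signalling, which CBL-type ligases, Sprouty proteins and MAPK phosphatases restrain. In the follicle the granulosa cells are the textbook source of the ligand, and the oocyte and the theca are its textbook targets. Outside the follicle, mast cells, melanocytes, germ cells and blood progenitors are known for KIT. Counts from the 3′ end of transcripts add the ligand's forms together.

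After filtering, 36457 cells remained, 5189 to 7096 per ewe, with 43329214 to 75549906 unique molecular identifiers (UMI, each counting 1 captured RNA molecule) per library over all its deposited barcodes. These cells held 3786 to 6634 KITLG UMI and 951 to 2093 KIT UMI per ewe. Cell types were named from clusters by marker lists, and 32324 cells received a name. Endothelial markers summed to between 3259 and 5019 CPM (UMI per 1000000 UMI of the counts summed per ewe and cell type) in endothelial cells of the 6 ewes and to at most 106 in mural-type granulosa cells, and the theca markers CYP17A1 and INSL3 had medians of 357 and 221 in theca. No cluster was named oocyte or melanocyte. Of the 9 oocyte genes, GDF9 had 916 UMI in 871 of 36457 cells, DDX4 112 UMI, ZP2 103, NLRP5 32, ZP3 27, OOEP 3 and FIGLA 2, and BMP15 and ZP4 had 0, which allows each a share of up to 0.00823% of cells with a UMI. Of the 5 melanocyte genes, PMEL had 400 UMI in 377 cells and TYRP1 55 in 41 cells, and DCT, TYR and MLANA had 4, 3 and 3 UMI. Some clusters came from few ewes: of the endothelial cells, the cluster led by OIT3 and ESM1 was mostly HLS ewe 2 (1757 cells) and LLS ewe 1 (2230 cells), the cluster led by CA4 and PPP1R1B was mostly HLS ewe 1 (1570 cells), and 105 of 107 luteal-type cells were from LLS ewe 3. A total of 297 of 51993 barcode sequences occurred in more than 1 library.

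KITLG was high in epithelial, granulosa and endothelial cells and low in immune and lymphatic endothelial cells. Levels are given for ewes with at least 10 cells of the type. In granulosa cells KITLG was 136, 108 and 126 CPM in HLS ewes 1, 2 and 3 and 195, 168 and 149 CPM in LLS ewes 1, 2 and 3, a mean of 147 ± 31.2 (SD, n = 6). In endothelial cells it was 92.7, 142 and 132 CPM in the HLS ewes and 121, 164 and 183 CPM in the LLS ewes, a mean of 139 ± 31.98 (SD, n = 6). The granulosa and endothelial ranges overlapped, and granulosa cells were higher in 3 of 6 ewes. Epithelial cells held 187 ± 23.1 CPM (SD, n = 4), and the luteal-type cells of the only ewe with enough of them held 120 CPM. The epithelial cluster had OVGP1, TFF3 and WFDC2 among its leading genes, and 67.2% of its 265 cells came from 1 ewe. Its place in the tissue was not tested.

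Below these came perivascular cells with 72.2 ± 31.5 CPM (SD, n = 6), Schwann cells with 58.5 ± 14.5 (SD, n = 5), stroma with 46.1 ± 28.7 (SD, n = 6) and theca with 38.3 ± 14.5 (SD, n = 6). Stroma ranged from 17.4 CPM in HLS ewe 1 to 101 CPM in LLS ewe 2, which lay far above the other 5, and the theca values lay from 18.2 to 60.5 CPM. Immune cells lay lower: T or NK cells held 14.2 ± 4.93 CPM (SD, n = 6), B lineage cells 9.43 ± 7.50 (SD, n = 5) and macrophages 4.96 ± 2.06 (SD, n = 6). Lymphatic endothelial cells held 7.39 ± 6.80 CPM (SD, n = 6), from 1.89 to 15.9, against a lowest value of 92.7 CPM in the blood endothelium. Mast cells had 0 KITLG UMI among 37209 UMI, which allows up to 80.6 CPM at the limit of 3 counts.

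KIT had another order. Its level was highest by far in mast cells, then in blood endothelium and theca, and it was near the bottom of its range in stroma. The 19 mast cells, named from a cluster with TPSB2, HPGDS and FCER1A among its leading genes, held 38 KIT UMI of 37209, or 1021 CPM (exact Poisson 95% interval 723 to 1402, counting error only). Of them 14 cells had a KIT UMI, 73.7% (exact binomial 95% interval 48.8 to 90.9%) at a median depth of 1751 UMI, beside 3.21% of T or NK cells at 2389 UMI. Both shares pool cells over ewes, and 13 of the mast cells were from LLS ewe 2. The binomial interval therefore holds no spread between ewes. Only LLS ewe 2 had at least 10 mast cells, with 1385 CPM.

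In endothelial cells KIT was 44.2, 45.9 and 66.8 CPM in HLS ewes 1, 2 and 3 and 39.2, 68.6 and 72.6 CPM in LLS ewes 1, 2 and 3, a mean of 56.2 ± 14.6 (SD, n = 6). In theca it was 11.6, 30.5 and 20.6 CPM in the HLS ewes and 69.7, 21.9 and 23.8 CPM in the LLS ewes, a mean of 29.7 ± 20.6 (SD, n = 6). LLS ewe 1, with 58 theca cells, stood above the other 5 ewes in theca and was the lowest of the 6 in endothelium. Granulosa cells held 15.4 ± 5.54 CPM (SD, n = 6), between 10.5 and 26.0, macrophages 12.1 ± 10.04 (SD, n = 6), T or NK cells 11.5 ± 7.07 (SD, n = 6) and epithelial cells 11.1 ± 3.72 (SD, n = 4). Perivascular cells held 6.004 ± 3.61 CPM, lymphatic endothelial cells 2.96 ± 1.14 and stroma 1.90 ± 1.07 (SD, n = 6 each), and the rest were lower than 4 CPM, with 1 KIT UMI in all 136 Schwann cells. Theca lay above stroma in 6 of 6 ewes, by 3.27 ± 1.2 (SD) on the log2(CPM + 1) scale, while KITLG in theca and stroma crossed, with theca higher in 4 of 6 ewes.

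**Figure D1:**
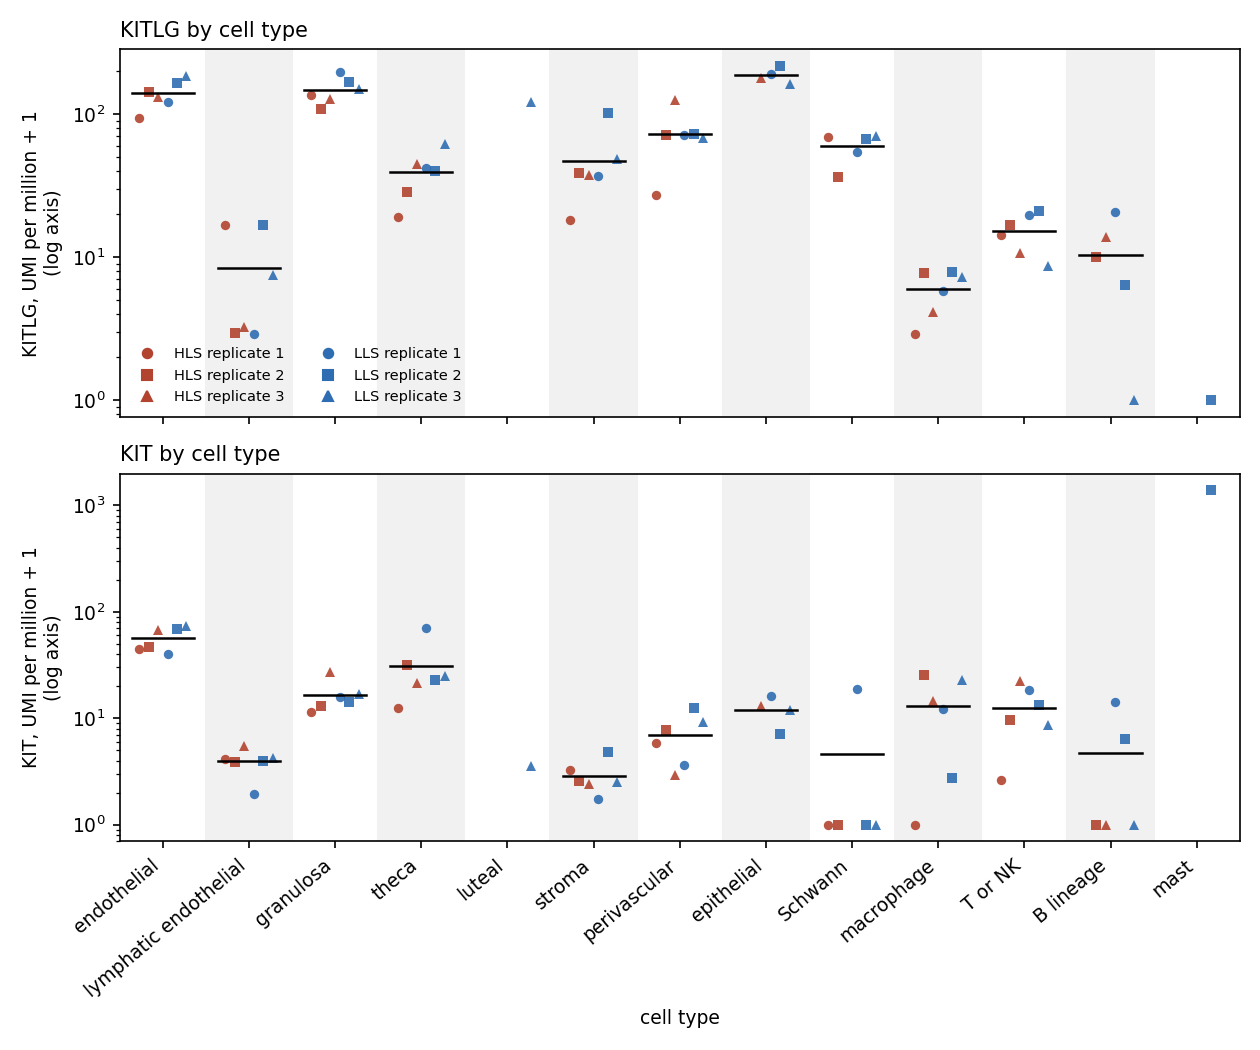
Levels of KITLG (top) and KIT (bottom) by cell type, in CPM plus 1 on a log axis, with 1 point for each ewe with at least 10 cells of the type and a line at the mean. KITLG stood highest in epithelial, granulosa and endothelial cells, and KIT in the mast cells of LLS ewe 2 and then in endothelium and theca.

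Steps between neighbouring types in either order are given as sizes over ewes, since their test could not pass. For 11 types with at least 4 ewes, each of 10 steps per gene had a two-sided exact sign-flip test over ewes, for which the smallest p with 6 ewes is 0.03125. Only 5 steps per gene had 6 ewes, so the lowest adjusted p this design could give was 0.0625. For KITLG, endothelium lay above perivascular cells in 6 of 6 ewes by 1.03 ± 0.59 (SD) and theca above T or NK cells in 6 of 6 ewes by 1.35 ± 0.91 (SD) on the log2(CPM + 1) scale, each with an exact p of 0.03125 and an adjusted p of 0.156. For KIT, endothelium lay above theca in 5 of 6 ewes by 1.07 ± 1.03 (SD, exact p = 0.09375, adjusted p = 0.3125), and theca above granulosa cells in 5 of 6 ewes by 0.75 ± 0.88 (SD, with the same exact p and adjusted p). The order of the types is a description.

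Most UMI of both genes came from the endothelium, the largest named type. Endothelial cells were 36.1% of the cells on average over ewes and gave 59.2 ± 16.3% (SD, n = 6) of the KITLG UMI and 74.2 ± 8.10% (SD, n = 6) of the KIT UMI. Granulosa cells were 8.08% of the cells and gave 14.0 ± 9.63% of the KITLG UMI and 5.72 ± 6.25% of the KIT UMI. Theca gave 3.45 ± 2.73% and 6.49 ± 3.42% of them, and stroma, 22.6% of the cells, gave 8.33 ± 6.13% of the KITLG UMI and 1.32 ± 1.12% of the KIT UMI (SD, n = 6 throughout). These shares move with how many cells of each type a library caught.

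Detection per cell was compared after thinning each cell to 1000 UMI, since deeper cells show more genes. A KITLG UMI was then found in 12.0 ± 2.33% of endothelial cells and 11.9 ± 2.02% of granulosa cells (SD, n = 6), beside 0.681 ± 0.471% of macrophages, the lowest share among types with 6 ewes. Median depths before thinning were 8933, 8173 and 6171 UMI in that order, and without thinning the shares were 53.4%, 48.6% and 3.30%. A KIT UMI was found in 4.99 ± 1.03% of endothelial cells and 2.52 ± 1.59% of theca cells (SD, n = 6), beside 0.227 ± 0.102% in stroma, at median depths of 8933, 15989 and 5264 UMI. Unthinned, those shares were 28.9%, 23.7% and 1.11%. Lymphatic endothelial cells had 0.292 ± 0.170% (SD, n = 6) and early granulosa cells 0.133 ± 0.206% (SD, n = 6).

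Within the blood endothelium, the clusters led by GJA5, a connexin of arteries, held more KITLG and less KIT than the cluster led by SELP, a selectin of veins. The other clusters did not follow that contrast: the APLN cluster held much of both, and the OIT3 ESM1 cluster less of both than the SELP cluster. The clusters were formed without KITLG, KIT or the signalling genes below, and the differences between them are described with no test. In the SELP ABCG2 cluster KITLG was 102, 123 and 104 CPM in HLS ewes 1, 2 and 3 and 118, 133 and 130 CPM in LLS ewes 1, 2 and 3. In the GJA5 BMX cluster it was 235, 312 and 314 CPM in the HLS ewes and 315, 322 and 506 CPM in the LLS ewes. No ewe's value in one cluster reached the range of the other, and the GJA5 BMX cluster was higher by 1.46 ± 0.28 (SD) on the log2(CPM + 1) scale.

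The APLN cluster, named for apelin, lay between them in 6 of 6 ewes with 216 ± 41.3 CPM (SD, n = 6). A second arterial-gene cluster, led by GJA5 and GJA4, held 436 ± 97.2 CPM (SD, n = 4) and exceeded the SELP ABCG2 cluster in 4 of 4 ewes by 1.86 ± 0.42 (SD, log2 scale as before). The OIT3 ESM1 cluster held 104 and 88.1 CPM in its 2 ewes, in both below the SELP ABCG2 cluster of the same ewe, and the CA4 PPP1R1B cluster 102 ± 30.4 CPM (SD, n = 4).

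KIT was 68.0, 74.4 and 65.1 CPM in the SELP ABCG2 cluster of the HLS ewes and 67.3, 73.3 and 77.1 CPM in that of the LLS ewes. The 6 values lay close together, with a mean of 70.9 ± 4.74 (SD, n = 6). In the GJA5 BMX cluster KIT was 11.8, 34.8 and 19.3 CPM in the HLS ewes and 22.8, 36.7 and 35.4 CPM in the LLS ewes, below the SELP ABCG2 cluster in 6 of 6 ewes by 1.47 ± 0.55 (SD) on the log2 scale. The GJA5 GJA4 cluster held 10.04 ± 5.86 CPM (SD, n = 4) and was lower than the SELP ABCG2 cluster in 4 of 4 ewes by 2.86 ± 0.74 (SD). The APLN cluster, with 65.2 ± 22.8 CPM (SD, n = 6), crossed with the SELP ABCG2 cluster and was the higher one in 3 of 6 ewes. The OIT3 ESM1 cells held 38.8 and 40.03 CPM in HLS ewe 2 and LLS ewe 1, and these 2 ewes were among the 3 lowest for KIT in endothelium as a whole.

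Stroma and perivascular cells also held KITLG unevenly. In the fibroblast cluster led by DPT and PI16, genes of the connective tissue around vessels, KITLG was 68.8, 113 and 97.6 CPM in the HLS ewes and 122, 192 and 104 CPM in the LLS ewes. In the stroma cluster led by CRABP1 and PENK it was 11.8, 24.7 and 20.7 CPM in the HLS ewes and 23.8, 46.7 and 35.2 CPM in the LLS ewes, and in the stroma cluster led by PTCH1 and COL11A1 28.3 ± 12.3 CPM (SD, n = 6). The DPT PI16 cluster was the higher one in 6 of 6 ewes against either, by 2.11 ± 0.32 and 2.06 ± 0.61 (SD) on the log2(CPM + 1) scale. LLS ewe 2, highest in stroma as a whole, had 616 DPT PI16 cells of its 1337 stroma cells, against 91 to 260 in the other ewes. In perivascular cells, the KCNA5 PDE3A cluster, of smooth muscle genes, held 170 ± 57.6 CPM (SD, n = 6) and the RGS5 KCNJ8 cluster, of pericyte genes, 34.3 ± 15.3 (SD, n = 6), a difference of 2.31 ± 0.82 (SD) in the same direction in 6 of 6 ewes. KIT stayed under 12 CPM in every ewe of these 5 clusters.

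**Figure D2:**
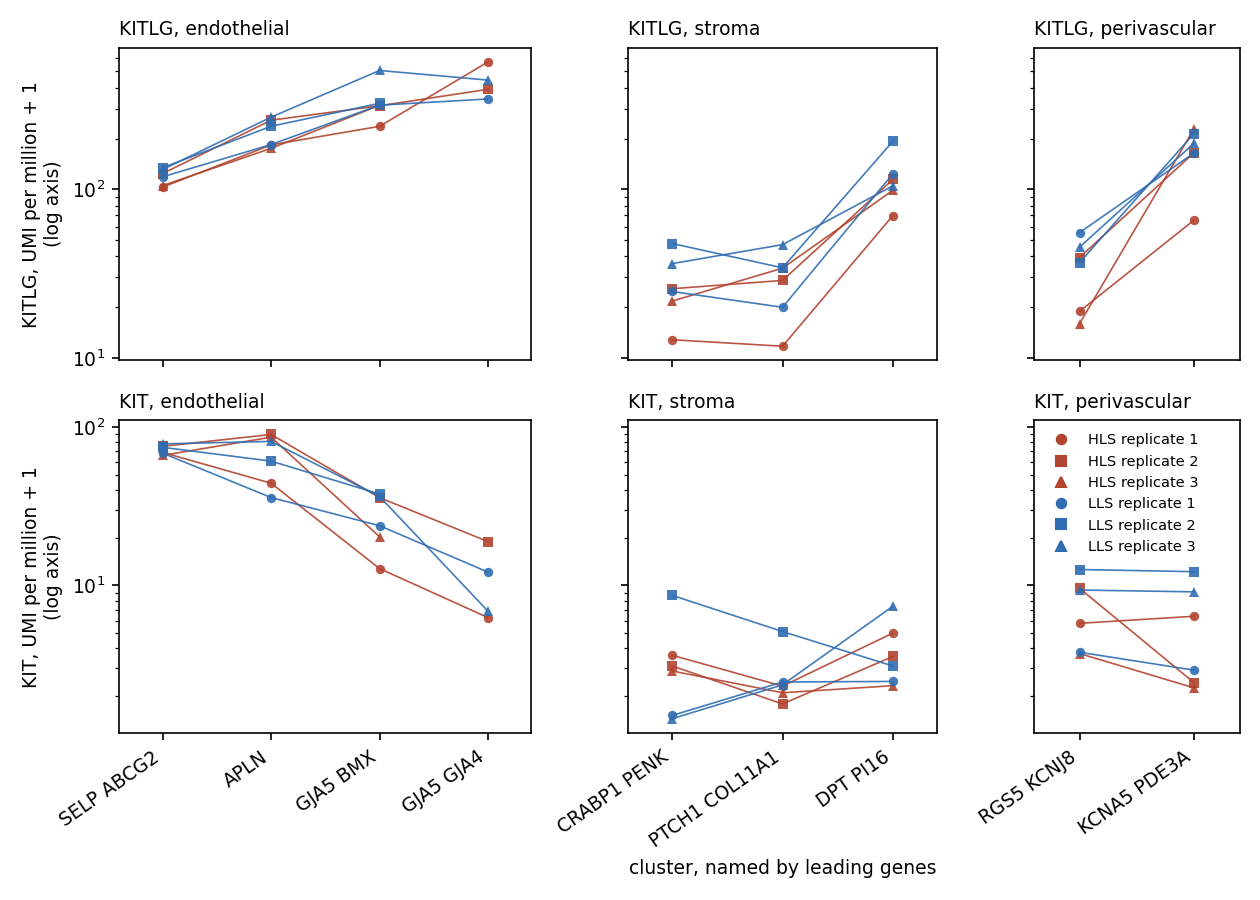
KITLG (top) and KIT (bottom) in clusters of endothelial, stroma and perivascular cells, in CPM plus 1 on a log axis, with 1 line per ewe joining its values for clusters with at least 10 cells. From the SELP ABCG2 to the GJA5 clusters KITLG was higher and KIT lower in each ewe, and KITLG was higher in the DPT PI16 and KCNA5 PDE3A clusters.

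Granulosa cells differed by state, from 77.7 to 239 CPM of KITLG on average, and among the named states KIT was found mainly in 1. States were named from markers: early (WT1, WNT6), INHA and AMH high (INHA, AMH, IHH), mural-type (HTRA3, JPH1, RUNX2) and cycling (MKI67, TOP2A). In the mural-type cells the 12 granulosa markers in the files summed to between 2399 and 4792 CPM, against 468 to 642 in theca and 311 to 492 in stroma, but not all markers were high. FST had a median of 40.8 CPM there, against 592 in all granulosa cells and 40.6 in theca, AMH 4.604 against 69.7 and 1.88, and HTRA3 609 against 128 in stroma. The cluster of 788 cells with RUNX2 and MMP9 among its leading genes scored 0.85 for granulosa, on 6 markers detected, and 0.80 for epithelial cells, so the granulosa name is less firm there. KITLG in mural-type cells was 147, 244 and 261 CPM in HLS ewes 1, 2 and 3 and 263, 201 and 316 CPM in LLS ewes 1, 2 and 3. Early cells held 128, 93.6 and 202 CPM in the HLS ewes and 135, 228 and 209 CPM in the LLS ewes, and cycling cells 77.7 ± 26.8 (SD, n = 6). INHA and AMH high cells held 99.4 ± 26.0 CPM (SD, n = 5). Mural-type cells were above early cells in 5 of 6 ewes, LLS ewe 2 being the exception, and above the cycling cells in 6 of 6.

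State pairs were tested with edgeR's quasi-likelihood test on the sums, with ewe as a block, over all genes of the pair. Between the states much of the transcriptome differed, with 49.7% of genes called for early against INHA and AMH high cells, 40.7% for early against mural-type, 54.8% for early against cycling, 44% for INHA and AMH high against mural-type, 9.44% for INHA and AMH high against cycling and 50.6% for mural-type against cycling. KITLG was higher in mural-type than in INHA and AMH high cells (the log2 fold change, INHA and AMH high over mural-type, was -1.197, SE 0.18, adjusted p = 3.67e-05) and higher in mural-type than in cycling cells (log2 fold change 1.48, SE 0.19, adjusted p = 2.76e-06). It was higher in early than in cycling cells (1.02, SE 0.22, adjusted p = 0.000445) and than in INHA and AMH high cells (0.75, SE 0.22, adjusted p = 0.00812), and lower in early than in mural-type cells (-0.51, SE 0.16, adjusted p = 0.0169). INHA and AMH high against cycling cells gave 0.22 (SE 0.18, adjusted p = 0.535), which did not pass the threshold. The early against INHA and AMH high call was lost without HLS ewe 3 (0.52, adjusted p = 0.0908) and with DESeq2 (0.69, adjusted p = 0.0910), and the early against mural-type call without HLS ewe 2 (-0.40, adjusted p = 0.0642).

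KIT in mural-type cells was 12.1, 56.8 and 51.6 CPM in the HLS ewes and 31.0, 14.1 and 29.9 CPM in the LLS ewes. Early cells had 4 KIT UMI in 317 cells, all in HLS ewe 3 and LLS ewe 2, with 3.75 and 4.75 CPM. INHA and AMH high cells had 9 KIT UMI in 205 cells, from 0 to 24.7 CPM in 5 ewes. Cycling cells had 19 KIT UMI in 222 cells, from 0 to 20.8 CPM in 6 ewes. The mural-type value of a ewe was above its value in each of the other states in every ewe that had both. The smallest margins on the log2(CPM + 1) scale were 0.19 over cycling cells and 0.26 over INHA and AMH high cells, so some ewes were nearly level. KIT passed the filter on low counts in 1 pair, INHA and AMH high against mural-type, through the mural-type cells where it was high, so its edgeR estimate there (log2 fold change -3.40, SE 0.57, 5 ewes) is a description and no test is drawn from it. Early cells had too few KIT UMI for a fold. Median depth was 12401 UMI in mural-type, 12973 in INHA and AMH high, 4535 in early and 6724 in cycling cells.

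Some, but not all, markers of other KIT-holding cells were low in the mural-type cells. CYP17A1 and INSL3 reached at most 3.73 and 1.91 CPM there, and their medians in theca were given above. Other theca markers are not given here, and CYP11A1 is on both the theca and the mural-type list. Of the 7 mast genes in the files, CPA3, HDC, HPGDS and FCER1A were at 0, and MS4A2 and TPSB2 did not pass 1 CPM. SLC18A2, a monoamine transporter, held 34.8 to 165 CPM, with a median of 62.3. In mast cells it lay from 0 to 179 CPM over ewes, with a median of 46.1. That mast median includes ewes with very few mast cells, since most came from LLS ewe 2, so it does not rank the cell types. The 8 stroma markers summed to between 1046 and 2602 CPM in mural-type cells and to between 384 and 1177 in all granulosa cells, and KIT in stroma itself was 1.90 CPM. In the 234 of 829 mural-type cells without a UMI of the endothelial, T or NK or mast lists, CYP17A1 or INSL3, a subset chosen after the values were seen, KIT was 41.02 ± 21.2 CPM (SD, n = 6) against 32.6 ± 18.5 (SD, n = 6) in all of them. One of the 3 mural-type sub-clusters, led by interferon-induced genes such as MX1 and ISG15, came from LLS ewe 2 at 84.0% of its 238 cells. KIT in LLS ewe 2 was 11.3 CPM there and 28.0 and 22.4 CPM in the other sub-clusters.

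**Figure D3:**
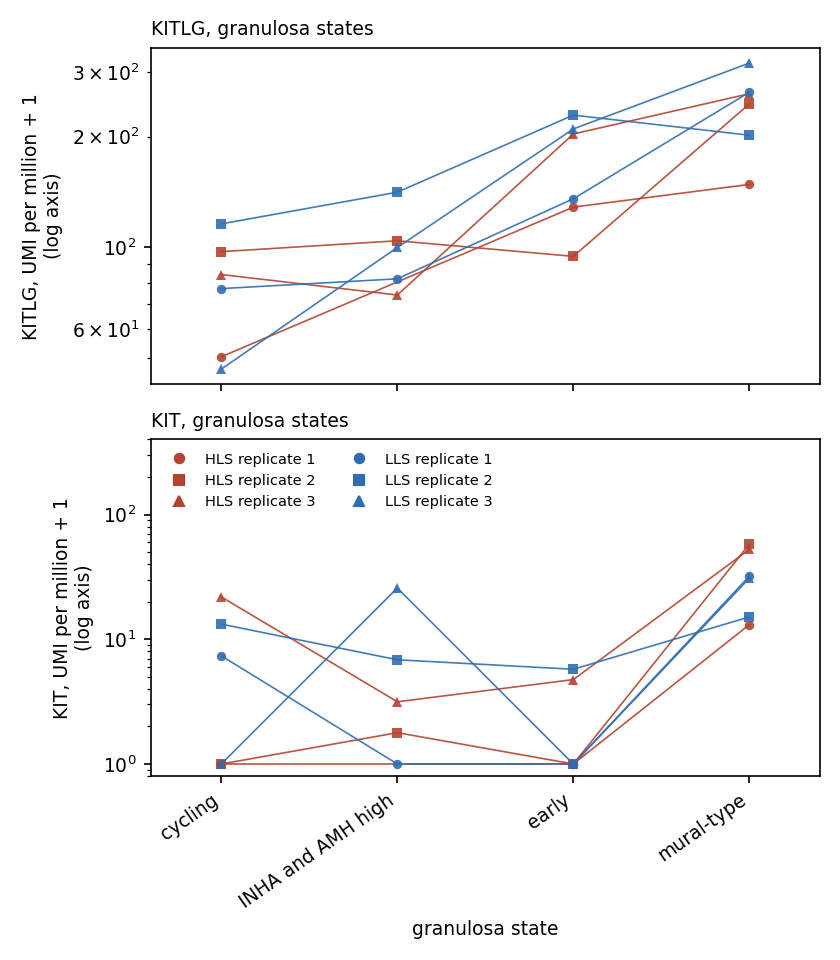
KITLG (top) and KIT (bottom) in the 4 named granulosa states, in CPM plus 1 on log axes, with 1 line per ewe joining its values for states with at least 10 cells. Mean KITLG was lowest in cycling cells (77.7 CPM) and highest in mural-type cells (239 CPM), and in each ewe KIT was highest in mural-type cells; points on the bottom line of the lower panel are ewes with 0 KIT UMI.

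Among the granulosa sub-clusters without a state name, the CCN3 ANGPT2 sub-cluster of 521 cells held 47.8 ± 5.85 CPM of KITLG (SD, n = 4) and 11.6 ± 3.43 of KIT (SD, n = 4). The PTX3 SCG2 sub-cluster, with 164 of its 244 cells from HLS ewe 3, held 94.9 ± 46.0 CPM of KITLG (SD, n = 5) and 26.1 ± 10.3 of KIT (SD, n = 5). That KIT level lay within the spread of the mural-type cells (32.6 ± 18.5 CPM, SD, n = 6), so KIT was not particular to the mural-type state. Sub-cluster 10, led by CYP19, the aromatase gene, held 117 and 229 CPM of KITLG in the 2 ewes with enough cells and 0 and 9.84 CPM of KIT.

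Immune cells carried little ligand, and their KIT was uneven. Macrophages held 0 KIT UMI in HLS ewe 1 and 24.4 and 13.5 CPM in HLS ewes 2 and 3, with 11.1, 1.73 and 21.9 CPM in the LLS ewes. Of the 57 KIT UMI in macrophages, 49 were in the 138 cells of the sub-cluster led by CFD, CD300H and MS4A8, at 225, 65.4, 69.8 and 155 CPM in HLS ewes 2 and 3 and LLS ewes 1 and 3. Another macrophage sub-cluster, of 309 cells with C1QB, C1QC and C1QA among its leading genes, held 6 KIT UMI, below the CFD CD300H sub-cluster in 4 of 4 ewes. The CFD CD300H sub-cluster also had C1QA and C1QB among its leading genes. In the CFD CD300H sub-cluster the 6 macrophage markers in the files were all detected, at 4180 to 6685 CPM summed, and the mast list summed to 0 to 14.1 CPM. Its 9 endothelial markers summed to between 243 and 939 CPM, and their part in its KIT level was not tested. PECAM1 had a median of 597 CPM there and 603 in macrophages as a whole. CDH5 and VWF had medians of 5.51 and 17.4 CPM there, against 415 and 752 in endothelium, and the other markers are not given here. Among the 67 KIT UMI of T or NK cells, 16 were in the 50 cells of the CCL20 CCR8 sub-cluster, at 17.6 and 101 CPM in its 2 ewes, and 15 in the 144 cells of the sub-cluster led by XCL1, IL2RB and SH2D1A, with 43.6 ± 44.1 CPM (SD, n = 5).

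The genes that act with the pair were read from a list of 65 genes in 10 roles, which counts KITLG and KIT themselves as 2 of the roles. Values are means over ewes. Among the proteases that can shed the ligand, ADAM10 was highest in lymphatic endothelial cells (497 CPM) and held 216 CPM in blood endothelium and 86.8 in granulosa cells. MMP9, a secreted gelatinase, was highest in macrophages (57.0 CPM) and held 49.4 CPM in granulosa cells and 0.981 in endothelium. Of the related receptors and ligands, PDGFRA was highest in stroma (341 CPM), PDGFRB in perivascular cells (317 CPM) and CSF1R in macrophages (303 CPM). PDGFRA and CSF1R are on the stroma and macrophage marker lists that named those types, so their places were partly set by the naming. SHC1, an adaptor of activated receptors, was highest in endothelium (327 CPM) and FOXO1, a factor that AKT keeps out of the nucleus, in granulosa cells (395 CPM). The inhibitors DUSP6, a MAPK phosphatase, and SPRY2 were highest in mast cells (625 CPM) and Schwann cells (269 CPM). MITF and GATA2, transcription factors of the mast lineage, were highest in mast cells (313 and 223 CPM). The mast values came from 13 cells of LLS ewe 2 and rested on 7 UMI for MITF, 5 for GATA2 and 14 for DUSP6, so their rank is uncertain, and GATA2 held 65.0 CPM in endothelium against 0.750 in theca.

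Between INHA and AMH high and mural-type cells, 46 of the 65 genes were tested, of which 23 were lower and 1 was higher in INHA and AMH high cells, KITLG and KIT among the lower ones, beside 23.6% lower and 20.4% higher over all genes. A gene that passed the filter only through the state where it was high, as KIT did, had to differ. These counts, and those of the other state pairs, are therefore descriptions. The median log2 fold change of the 46 genes was -0.55, against -0.035 over all genes. The lower ones included STAT3 (-1.49, SE 0.24), PIK3R1, the regulatory subunit of PI3K (-0.86, SE 0.18), and ADAM10 (-0.56, SE 0.18). MITF (-3.84, SE 0.35) and PDGFRA (-3.58, SE 0.29) were lower too. PDGFRA had a median of 15.6 CPM in INHA and AMH high cells and 149 in mural-type cells. DUSP6 was the higher one (0.68, SE 0.26). FOXO1 gave 0.011 (SE 0.12) and was not called. Whether any of these genes passed the filter only through the state where it was high was not checked, so no test is drawn from them. By role, 3 of 3 JAK and STAT genes, 4 of 10 adaptors and kinases, 4 of 9 PI3K genes, 3 of 9 RAS and MAPK genes and 3 of 8 inhibitors tested were lower in INHA and AMH high cells.

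Between early and mural-type cells, 45 genes of the list were tested, 16 lower and 3 higher in early cells, with a median of -0.27 against 0.0081 over all genes, of which 20.2% were lower and 20.5% higher. FOXO1 was lower in early cells (-1.59, SE 0.14), as was SPRY2 (-1.36, SE 0.27), while DUSP6 (1.39, SE 0.25) and PIK3R1 (0.55, SE 0.17) were higher. MITF was lower too (-2.82, SE 0.36). These are again descriptions with no test drawn, since how each gene passed the filter was not checked. Against INHA and AMH high cells, 10 of 17 genes tested were higher in early cells and 1 was lower, beside 25.2% higher and 24.5% lower over all genes. The lower one was FOXO1 (-1.75, SE 0.15, likewise a description), and the median was 0.72 against 0.0075. Against cycling cells the list gave 6 higher and 2 lower of 17 for early cells, beside 27% higher and 27.8% lower over all genes. It gave 23 higher and 1 lower of 45 for mural-type cells, beside 25.8% and 24.8%, and 2 higher and 0 lower of 30 for INHA and AMH high cells, beside 3.30% and 6.14%.

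Between the litter-size groups no difference in KITLG or KIT passed the test in any cell type, cluster or state where the gene was fitted. KITLG was fitted in 14 of the 16 types, clusters and states compared and its estimate was lower in HLS in each of them, from -0.79 to -0.039 on the log2 scale. These units share ewes and some share cells, so the 14 are not separate observations. The largest estimates were in the CRABP1 PENK stroma (-0.79, SE 0.28, unadjusted p = 0.0151, adjusted p = 0.864 by edgeR) and the RGS5 KCNJ8 perivascular cells (-0.78, SE 0.34, unadjusted p = 0.0460, adjusted p = 0.999 by edgeR), the only 2 under an unadjusted 0.05. In theca the estimate was -0.55 (SE 0.27), in DPT PI16 stroma -0.52 (SE 0.27), in GJA5 BMX endothelium -0.35 (SE 0.23), in endothelium -0.29 (SE 0.20), in granulosa cells -0.26 (SE 0.20) and in mural-type cells -0.19 (SE 0.24). Scaled to total UMI in place of TMM factors, the granulosa estimate was -0.47 (SE 0.19), where the median of all genes moved to -0.18, and the theca estimate was -0.68 (SE 0.33), with the median at -0.16.

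In granulosa cells and in the GJA5 BMX endothelium the 3 LLS ewes all lay above the 3 HLS ewes for KITLG, as the values given above show. The same held for 12.7% of all genes tested in granulosa cells and for 6.07% in the GJA5 BMX cluster. For KIT the LLS ewes all lay above the HLS ewes in the PTCH1 COL11A1 stroma, as did 7.14% of genes tested there. KIT was not fitted in that cluster and reached at most 4.11 CPM. HLS ewe 1 had the lowest KITLG level in 10 of 16 units, and it was also the lowest ewe for 32.8 to 48.0% of all genes, depending on the unit. Without HLS ewe 1 the estimates were -0.39 in theca, -0.21 in endothelium and 0.078 in KCNA5 PDE3A perivascular cells. In granulosa cells, where HLS ewe 2 was the lowest and HLS ewe 1 the highest of the HLS ewes, the estimate was -0.41. The other units are not given here, and its part in the lower HLS estimates was not tested.

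KIT was fitted in 8 of the 16 units, with estimates lower in HLS in 5. It had no fit in the stroma clusters, KCNA5 PDE3A perivascular cells, lymphatic endothelium, early granulosa cells, macrophages and T or NK cells. The estimate was -0.67 (SE 0.45) in theca, -0.45 (SE 0.36) in GJA5 BMX endothelium and -0.12 (SE 0.26) in endothelium as a whole, and 0.75 (SE 0.49) in mural-type cells, 0.40 (SE 0.29) in APLN endothelium and 0.34 (SE 0.33) in granulosa cells. None had an unadjusted p under 0.05, and the lowest adjusted p was 0.771 by edgeR. The theca estimate rested on LLS ewe 1 (0.039 without it), and the granulosa estimate on HLS ewe 3 (-0.13 without it).

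Few genes of any kind passed in these comparisons. By edgeR, 0% of genes tested were called in endothelium, granulosa cells, theca and in 14 of the 16 units, 0.00812% (1 of 12308) in the SELP ABCG2 cluster and 0.0148% (1 of 6748) in macrophages. An unadjusted edgeR p under 0.05 was found for 176 of 14907 genes in endothelium, 572 of 11907 in granulosa cells and 420 of 12184 in theca. Each is under the 1 in 20 that would fall there with no difference. DESeq2 called 8, 6 and 0 genes in these types. Of the list of 65 genes, 0 were called in any unit, and its median log2 fold change was -0.099 in endothelium, -0.091 in granulosa cells and -0.17 in theca, beside 0.0031, 0.013 and -0.0046 over all genes. On simulated counts of these sizes, 4-fold changes were recovered for 57% of changed genes in endothelium, 70% in granulosa cells and 85% in theca, and 2-fold changes for 2%, 15% and 23%, so a difference of the size estimated here could go undetected with 3 ewes a group. Of the simulated calls, 14.5%, 7.61% and 6.90% in that order were unchanged genes. For early against mural-type cells it was 6.25%. Each share is above what the threshold of 0.05 allows on average.

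**Figure D4:**
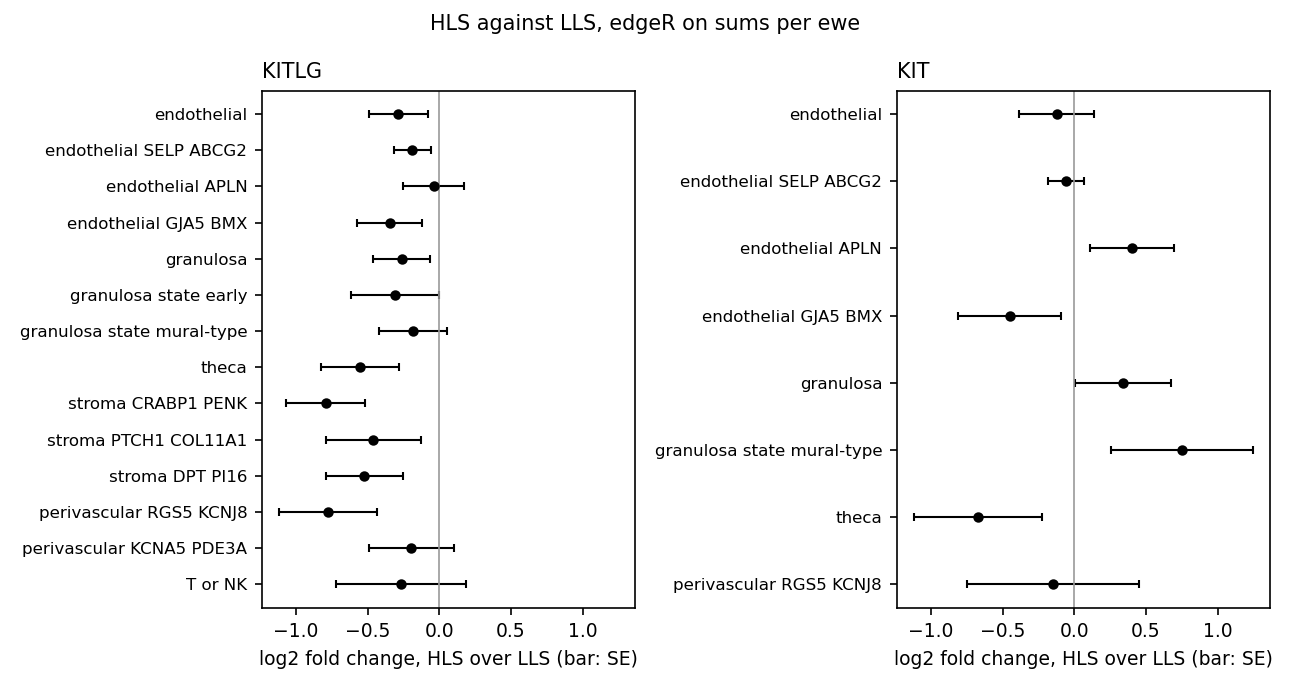
Log2 fold changes of KITLG (left) and KIT (right), HLS over LLS, from edgeR on sums per ewe, with bars of 1 SE and 1 row for each cell type, cluster or state in which the gene passed the filter. Every KITLG point lies left of 0, none passed the adjusted threshold, and the KIT points lie on both sides.

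Across the 64 sums of ewe and cell type, over 13 types, the genes whose log2(CPM + 1) ran most like KITLG among 11054 genes were CSRP2 (Pearson r = 0.81), ADGRL2 (0.79), LMO7 (0.79), LGR4 (0.79) and LOC101114586 (0.78). CSRP2, a LIM domain protein, held 400 CPM in perivascular cells, 243 in epithelial cells, 239 in endothelium, 89.8 in granulosa cells and 11.9 in macrophages. Those most like KIT were LOC101106534 (0.66), DAXX (0.62), SCARB1 (0.61), KCNQ1 (0.58) and VWA5A (0.58), and KITLG and KIT had an r of 0.17 with each other. One of the sums was the 13 mast cells of LLS ewe 2, with 22384 UMI in all and 1385 CPM of KIT. In it VWA5A held 1162 CPM, LOC101106534 134, DAXX 89.3 and SCARB1 and KCNQ1 44.7 each, most of them resting on few UMI. The weight of that sum in the values for KIT was not tested. The sums of a ewe share a library and differ in depth, so these are descriptions with no test.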

How the data were processed

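Single cells from 1 ovary of each of 6 Hu ewes were counted as UMI per gene. The deposited counts are whole-number UMI counts per gene and barcode that the authors made with Cell Ranger and STAR, as the processing notes name them, and the genome build is not given in the sources used here. All 30574 features and 52290 deposited barcodes were read, and 0 columns of other series were left out. KITLG, KIT and the lists of markers and signalling genes were chosen with earlier results of these data known.

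Barcodes were kept with at least 200 genes, 1000 UMI and a complexity (log genes over log UMI) of 0.7, and at most 10% mitochondrial and 5% haemoglobin UMI, which left 38464. Doublets were scored against simulated ones, 2 per cell, and called at 0.8% per 1000 barcodes, which removed 2007 and left 36457 cells. Cells were clustered on 2000 variable genes without KITLG, KIT and the signalling list, with 30 principal components, 20 neighbours and Leiden resolution 0.8 (Python 3.11.15, numpy 2.4.6, scipy 1.17.1, igraph 0.11.9, leidenalg 0.10.2). Clusters were named from marker lists, 4133 cells stayed unnamed, and since the names were rebuilt they may differ from the study's. Total depth per library and the cells kept set the precision of each value, and intervals cover counting error only.

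Raw counts were summed per ewe and type for ewes with at least 10 cells. HLS and LLS were compared with edgeR's quasi-likelihood test (edgeR 4.0.16, R 4.3.3, TMM factors, filterByExpr) on 3 against 3 ewes, and granulosa states with ewe as a block, with Benjamini-Hochberg adjustment over all genes tested and a threshold of 0.05. Neighbouring types were compared by exact sign-flip tests. DESeq2 1.42.0, scaling without TMM factors, no filter on low counts, a replicate block, other cell filters and resolutions and leaving out each ewe were alternatives. Levels in cells without UMI of listed markers of other types were added after seeing the data, with no fit. The edgeR fits were tested on simulated data with 200 changed genes. Genes named were KITLG and KIT, up to 4 genes per role with the highest mean CPM, any listed gene past the HLS and LLS threshold, and the 5 genes most like each of the pair. Replicate numbers were not treated as pairs, since in 0 of 16 units did all same-numbered ewes correlate above 0.1 in their deviations, although the ewes numbered 3 correlated above 0 in 15 of 16. The ewes are the replicates, and labels name no batch.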

Additional observations from a re-analysis of the deposited data

Results flagged for a closer look

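In 8 of the 48 sets of ewes tested, 1 ewe lay far from the others. The limit used marks about 1 in 20 of separate sets by chance. These sets share ewes and some share cells, and some values rest on few UMI, so the 8 cannot be set against that rate. For KIT these were LLS ewe 1 in theca (69.7 CPM), HLS ewe 3 in granulosa cells (26.0 CPM), LLS ewe 3 in INHA and AMH high granulosa cells (24.7 CPM, from 3 UMI), and LLS ewe 2 in CRABP1 PENK stroma (7.65 CPM) and in PTCH1 COL11A1 stroma (4.11 CPM). The only KIT UMI in Schwann cells put LLS ewe 1 at 17.8 CPM. For KITLG they were LLS ewe 3 in GJA5 BMX endothelium (506 CPM) and LLS ewe 2 in stroma (101 CPM).

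Cells outside the named types also held both genes, given here as pooled CPM over all their cells, with no control samples to set them against. The cluster of cycling cells nearest to endothelium (975 cells) held 121 CPM of KITLG and 39.4 of KIT, and the cycling cluster nearest to stroma (533 cells) 40.7 and 2.26. A cluster of 873 shallow cells (median 1317 UMI) held 159 CPM of KITLG and 79.3 of KIT. Its best-scoring type was mast cells, with perivascular cells close behind, and it stayed unnamed. Its leading genes included the gene that led the mast cells. Whether mast cells in this cluster added to its KIT was not tested. The FAM167B TCF15 GPIHBP1 cluster (319 cells, median 1726 UMI) held 82.6 and 22.3 CPM, and the PLAC8 LAMP3 BLNK cluster (153 cells, mostly from 1 ewe) 8.69 and 5.79. The S100A8 S100A9 CXCR2 cluster (127 cells) was shallow too, with a median of 1257 UMI. It held 62.6 CPM of KITLG and 53.2 of KIT, the latter from 17 UMI, with 0 CPM in HLS ewe 3. The cluster of ciliary genes such as CCDC39 and DNAH5 (69 cells) held 238 and 15.9 CPM. How much RNA from other cells added to the shallow clusters was not tested.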

How the results depend on the processing

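No alternative moved a difference between HLS and LLS past the threshold: of 295 alternative values for 22 results, 280 kept their direction and 15 turned it, with a lowest adjusted p of 0.378. KITLG in APLN endothelium turned to 0.021 with called doublets kept and to 0.062 with the mitochondrial limit at 20%, KIT in RGS5 KCNJ8 perivascular cells to 0.31 with doublets kept, and KIT in SELP ABCG2 endothelium to 0.055 at 0.5 times the resolution. Leaving out 1 ewe at a time, KIT ranged from -0.34 to 0.046 in endothelium, -0.12 to 0.018 in SELP ABCG2 endothelium, -0.13 to 0.52 in granulosa cells, -1.03 to 0.039 in theca and -0.64 to 0.23 in RGS5 KCNJ8 perivascular cells, and KITLG from -0.17 to 0.11 in APLN endothelium, -0.53 to 0.078 in KCNA5 PDE3A perivascular cells and -0.51 to 0.031 in T or NK cells. With a replicate block KITLG in endothelium was -0.27 and KIT in theca -0.58, no call on either gene changed, and called genes went from 0 to 2 in early cells, 0 to 2 in T or NK cells, 0 to 1 in KCNA5 PDE3A cells, 1 to 4 in macrophages and 1 to 0 in SELP ABCG2 endothelium. Same-numbered ewes' deviations in endothelium correlated at -0.28, -0.38 and 0.35.

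Between granulosa states, 70 of 76 alternative values kept direction and call. KITLG in early against INHA and AMH high cells lost its call without the filter (0.57) and with DESeq2 (0.69) and ranged from 0.52 to 0.97 with 1 ewe left out, and early against mural-type ranged from -0.68 to -0.40. INHA and AMH high against cycling turned to -0.12 with doublets kept and -0.13 at the 20% limit. The cause was not tested. Shares of cells with a UMI moved with depth, as thinning sets it: for KITLG to 53.4% unthinned and 28.8% at 3000 UMI in endothelium and to 48.6% and 28.999% in granulosa cells, and for KIT to 28.9% and 13.02% in endothelium and to 23.7% and 6.95% in theca.

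Steps in the order of types turned in 22 of 232 values, and the design allowed no step to be called. With TMM-scaled CPM, KITLG in granulosa against endothelium gave -0.080, Schwann against stroma -0.23 and lymphatic endothelium against macrophage -0.066. With the mean of each cell's CPM, KITLG in granulosa against endothelium gave -0.018, KIT in granulosa against macrophage -0.20 and in macrophage against T or NK cells 0.71. With doublets kept, KITLG in perivascular against Schwann gave -0.13 and KIT in epithelial against perivascular -0.48. At 0.5 times the resolution KITLG in lymphatic endothelium against macrophage gave -0.064 and KIT in theca against granulosa -0.097, and at 2 times the former gave -0.18 and KIT in macrophage against T or NK cells 0.033. With 1 ewe left out, KITLG ranged from -0.035 to 0.18 for granulosa against endothelium, -0.22 to 0.37 for perivascular against Schwann, -0.079 to 0.26 for stroma against theca, -0.11 to 1.33 for B lineage against lymphatic endothelium and -0.32 to 0.46 for lymphatic endothelium against macrophage, and KIT from -0.71 to 0.030 for macrophage against T or NK cells and -0.14 to 0.89 for B lineage against Schwann. With 5 ewes the exact test cannot go below 0.0625. Clusters or states not found again under another resolution or filter gave no value. KIT counts were the limit of depth in most types.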
